A study of Mus musculus with 22 samples.

Results

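The genes described here are those of the angiopoietin-like proteins Angptl4 and Angptl8 and of 6 partners in hepatic lipoprotein metabolism (Lipc, Apoa1, Apoa5, Apob, Apoc3 and Mttp). They were found in a table of mouse liver arrays by their symbol in the array annotation. Of the 8 genes listed, 7 were measured, each by 1 feature, out of 19505 gene symbols and 22206 features in all. Lipc, the gene of hepatic lipase, is not analysed here.

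The liver packs triglyceride and cholesterol onto apolipoprotein B with the help of the microsomal triglyceride transfer protein, Mttp, and secretes the particles as very low density lipoprotein (VLDL). In the capillaries of fat, heart and muscle, lipoprotein lipase (Lpl) releases fatty acids from these particles. Angptl4 and Angptl8 are secreted proteins that restrain lipoprotein lipase, Angptl8 together with a partner of its family. Angptl4 is known as a gene of fasting and of fatty acid sensing through the PPAR receptors, and Angptl8, also called betatrophin or lipasin, as a gene that feeding and insulin raise in liver and fat. Apoa5 favours the clearance of triglyceride-rich particles, Apoc3 slows it, and Apoa1 is the main protein of high density lipoprotein (HDL).

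All 22 arrays came from livers of male mice with a global knockout of adiponectin (strain B6;129-Adipoqtm1Chan/J, on a C57BL/6J background), an adipose hormone. The mice were 3 to 8 months old, lived under 12 h of light and 12 h of dark with chow and water always present, and were killed every 4 h. Zeitgeber time (ZT) counts hours from lights on. The groups were ZT2 (n = 4), ZT6 (n = 3) and ZT10 (n = 4) in the light, and ZT14 (n = 4), ZT18 (n = 3) and ZT22 (n = 4) in the dark. Every group carries the knockout, and wild-type livers are not analysed here, so the values describe time of day in the knockout and not the effect of the knockout. Within a time, the labels letter the arrays a to d. Each was taken as 1 mouse, so p-values reflect only how these arrays scatter.

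Levels are the deposited values on a scale taken as log2, so that a difference of 1 is a 2-fold change. Array medians lay between 5.28 and 5.36, and the lower quartile of an array between 3.67 and 3.91. Pairs of arrays correlated between 0.976 and 0.994, and 0 pairs were identical. The Adipoq feature, for the targeted gene, read 3.30 to 4.69, near the lower quartile of an array. Since adiponectin is a gene of fat cells and the place of the feature relative to the deletion was not known, this reading does not check the genotype. The 7 measured hepatocyte markers had means of 17.61 to 19.80, far above the array medians. The intestinal trefoil gene Tff3 separated 5 arrays (ZT6 b and c, ZT14 b and d, ZT22 a), where it read 10.35 to 13.63, from the other 17, where it read 2.31 to 4.73. Calls of Angptl4 and Angptl8 that were lost without these 5 arrays are given with and without them. For further genes of the pathway, changes of the 24 h call and of the light and dark call are named. Not every lost call of any difference among times is named for these genes. The cell type markers are given from all arrays only. In bulk liver, fewer cells of a type and less RNA per cell cannot be told apart.

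Promoter sequence was read from RefSeq (GRCm38.p6) for the 250 bases before the annotated start, and 6 of the 8 genes matched. No window was found for Angptl4 and Apoc3, so the matches below do not cover them. The pair below is shown because Angptl8 moved most over the day, whereas Apoa5, which holds the same letters, was not called by any test. Both genes lie on the plus strand of chromosome 9, at chr9:21835260-21835509 and chr9:46268358-46268607. Capitals mark GGGTCA on either strand and the E-box CACGTG.
Angptl8: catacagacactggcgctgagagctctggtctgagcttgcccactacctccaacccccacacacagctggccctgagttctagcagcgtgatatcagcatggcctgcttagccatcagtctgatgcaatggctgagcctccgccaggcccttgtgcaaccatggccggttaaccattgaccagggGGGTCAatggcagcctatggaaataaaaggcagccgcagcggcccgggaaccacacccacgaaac
Apoa5: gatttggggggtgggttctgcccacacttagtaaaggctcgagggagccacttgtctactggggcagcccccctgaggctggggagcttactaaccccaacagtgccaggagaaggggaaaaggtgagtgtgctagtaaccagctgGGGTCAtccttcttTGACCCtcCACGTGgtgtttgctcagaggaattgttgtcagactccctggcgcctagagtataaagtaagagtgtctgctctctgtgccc

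In Angptl8 the capitals begin 65 bases before the start. In Apoa5 the letters GGGTCA begin at 104 bases on the plus strand and at 90 bases on the minus strand, and the E-box at 82 bases. Among 32851 mouse promoter windows of the same length, searched on both strands, 11.65% held GGGTCA and 6.02% held the E-box. The letters GGGTCA differ by 1 letter from the nuclear receptor half-site AGGTCA, were added to the search after the windows had been read, and cannot start at the same base as that half-site. The half-site was in 14.02% of the windows, and among the 6 genes with a window it was found before a second annotated start of Lipc. The D-box TTATGTAA (0.819% of windows) and the FOXO core GTAAACA (3.17%) were not found in the windows of the 6 genes. These matches describe letters and not bound sites.

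Of the 7 measured genes, the pair of Angptl genes changed over the day, in opposite directions. Angptl8 was higher in the dark and Angptl4 was higher in the light, and the Angptl4 call was lost without the 5 arrays with high Tff3. The 4 apolipoprotein genes and Mttp did not pass any test of time. A 24 h cosine curve was called for 1 of the 7 genes, Angptl8, beside 7.62% of all features (limma, Benjamini-Hochberg adjusted p under 0.05 over all 22206 features). The test of any difference among the 6 times, which assumes no shape, called 2 of the 7, Angptl8 and Angptl4, beside 6.14% of features. Light against dark, tested as the mean of the 3 light times minus the mean of the 3 dark times, also called Angptl8 and Angptl4, beside 5.27% of features. Angptl4 was the 1 gene higher in the light (2.02% of features) and Angptl8 the 1 higher in the dark (3.25% of features). A 12 h component was called by limma for 0 of the 7 genes and for 0.018% of features, and 0 of the 7 had an unadjusted p under 0.05 there. The median fold span of the fitted 24 h curve, from trough to peak, was 1.28-fold over the 7 genes. It was 1.24-fold over all features and 1.29-fold over those above the median level, of which 13.6% were called for a 24 h rhythm. The 7 genes lie among the latter, since Angptl4, the dimmest by mean, stood at percentile 90.6 of all features.

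Angptl8, known from the fed liver, had the widest range of the 7 genes. At ZT10, near the end of the light phase, its arrays read 9.14, 7.62, 7.84 and 8.17. At ZT14, 2 h into the dark, they read 13.72, 14.97, 14.16 and 14.20. The lowest array at ZT14 stood above every array taken in the light, and ZT10 held the 4 lowest of all 22 values. At ZT2 the arrays read 9.58, 10.23, 9.71 and 9.74, a tight group just above ZT10. At ZT6 they read 9.96, 11.71 and 12.53, at ZT18 13.52, 10.29 and 12.49, and at ZT22 12.11, 14.39, 11.08 and 12.87. These 3 times were the most scattered, with SDs of 1.31, 1.65 and 1.39 against 0.29 at ZT2, 0.67 at ZT10 and 0.52 at ZT14. Ordered by their means, the times ran ZT10 (8.19), ZT2 (9.82), ZT6 (11.40), ZT18 (12.10), ZT22 (12.61) and ZT14 (14.26). Between neighbours in that order, the ranges of ZT10 and ZT2 did not overlap, and those of the other neighbours did.

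The rise of Angptl8 from ZT10 to ZT14 was 6.07 ± 0.61 on the log2 scale (limma standard error, 95% interval 4.81 to 7.33), a 67.2-fold change with an adjusted p of 6.23e-06. That step was called for 1.72% of features. The fall from ZT6 to ZT10 came to -3.21 ± 0.66 (9.24-fold, limma adjusted p = 0.0170), a step called for 0.639% of features. The call of that fall was lost without any of 4 arrays: without ZT6 array b it was -3.05 (adjusted p = 0.103), without array c -2.64 (adjusted p = 0.120), without ZT10 array b -3.02 (adjusted p = 0.0591) and without ZT10 array c -3.09 (adjusted p = 0.0537). The other 4 steps of Angptl8 were not called by limma: 1.59 from ZT2 to ZT6 (adjusted p = 0.404), -2.16 from ZT14 to ZT18 (0.175), 0.51 from ZT18 to ZT22 (0.999) and -2.80 from ZT22 back to ZT2 (0.0687). The last of these was called without ZT6 array a (-2.80, adjusted p = 0.0373), ZT18 array b (-2.80, 0.0302) or ZT22 array c (-3.31, 0.0250). Over all features these steps were called for 0.392%, 0.545%, 0.0811% and 0.131%.

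Over the whole day, Angptl8 in the 11 light arrays ran from 7.62 over a median of 9.71 to 12.53, and in the 11 dark arrays from 10.29 over 13.52 to 14.97. Of the dark arrays 7 lay above every light array, and of the light arrays 9 lay below every dark array. The 2 light arrays inside the dark range were ZT6 b and c, both with high Tff3. The difference, light minus dark, was -3.19 ± 0.37 (95% interval -3.96 to -2.42, 9.12-fold, limma adjusted p = 8.15e-06). Any difference among the times had a limma adjusted p of 3.65e-06. The 24 h cosine gave an amplitude of 1.98 ± 0.51, which is 15.6-fold from trough to peak, with a peak 17.98 h after lights on (SE 0.896 h) and a limma adjusted p of 0.0374. With 1 time left out the fitted peak moved to between 14.5 h (without ZT10) and 21.0 h (without ZT14), well beyond that SE, and the highest time mean was at ZT14. The cosine call is close to the threshold: with 1 array left out at a time the adjusted p ran from 0.00931 to 0.0675, and the call held without ZT2 b, ZT6 b, ZT6 c, ZT18 b, ZT18 c, ZT22 a or ZT22 c and was lost without any of the other 15. The light and dark difference and the ZT14 rise kept their calls in every one of these fits.

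**Figure D1:**
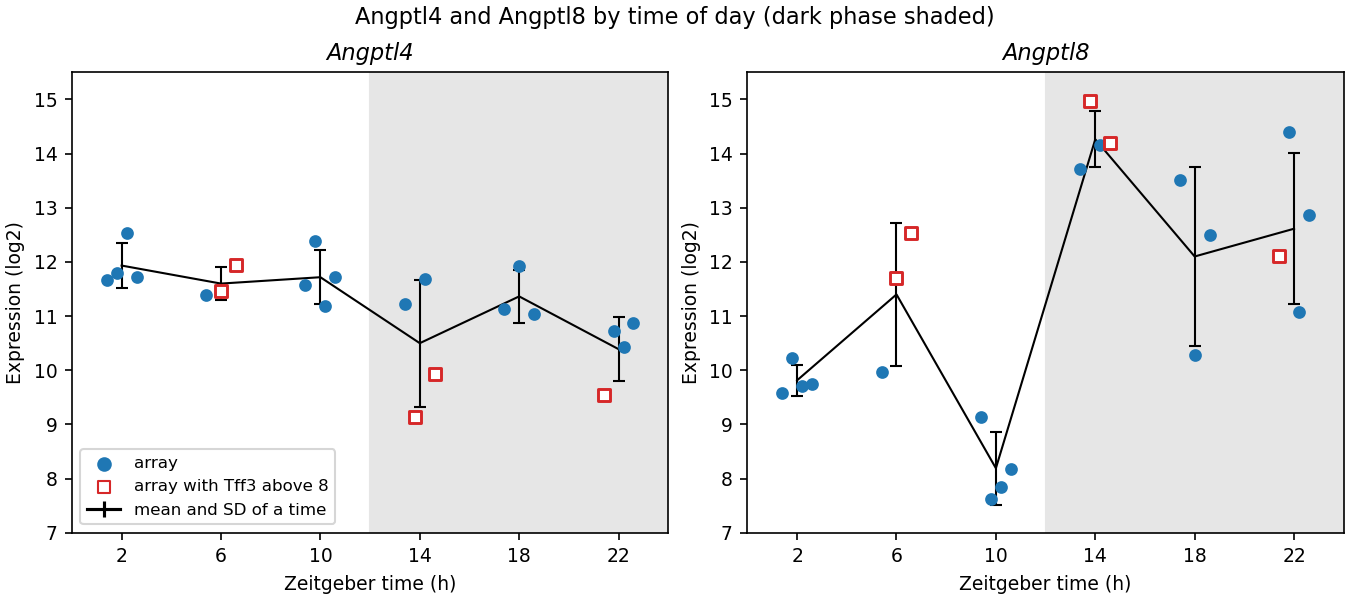
Log2 expression of Angptl4 (left) and Angptl8 (right) against zeitgeber time in hours; each point is 1 array, open red squares are the 5 arrays with high Tff3, the black line joins the time means with SD bars, and grey marks the dark phase. Angptl8 is lowest at ZT10 (7.62 to 9.14) and highest at ZT14 (13.72 to 14.97), whereas the lowest Angptl4 values (9.14, 9.54 and 9.94) are red squares of the dark phase.

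Angptl4, the lipoprotein lipase inhibitor known from fasting, had its 3 highest time means in the light. Its arrays read 11.66, 11.80, 12.54 and 11.73 at ZT2, 11.39, 11.46 and 11.95 at ZT6, and 11.58, 12.38, 11.18 and 11.73 at ZT10. In the dark they read 11.23, 9.14, 11.69 and 9.94 at ZT14, 11.13, 11.93 and 11.03 at ZT18, and 9.54, 10.72, 10.43 and 10.87 at ZT22. Of the 11 dark arrays 8 lay below every light array, and the other 3 (ZT14 a and c, ZT18 b) lay within the light range. The means were 11.93 ± 0.41 (SD, n = 4) at ZT2, 11.60 ± 0.31 (n = 3) at ZT6, 11.72 ± 0.50 (n = 4) at ZT10, 10.50 ± 1.17 (n = 4) at ZT14, 11.36 ± 0.49 (n = 3) at ZT18 and 10.39 ± 0.60 (n = 4) at ZT22. Every pair of neighbours in the order of these means overlapped.

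Light minus dark, Angptl4 differed by 0.999 ± 0.25 (95% interval 0.49 to 1.51), a 1.998-fold difference with a limma adjusted p of 0.0169. Any difference among the times had a limma adjusted p of 0.0443. The 24 h curve (amplitude 0.62 ± 0.21, 2.37-fold span, peak 5.81 h after lights on) was not called, with a limma adjusted p of 0.161. None of its 6 steps between neighbouring times was called by limma: the differences ran from -1.22 (ZT10 to ZT14, adjusted p = 0.140) to 1.54 (ZT22 to ZT2, adjusted p = 0.136). Without ZT14 array c the step from ZT10 to ZT14 was called (-1.61, limma adjusted p = 0.0318). The call of any difference among times held in 6 of 22 fits with 1 array left out (without ZT6 a, ZT10 c, ZT14 a, ZT14 b, ZT14 c or ZT22 d) and was lost without any of the other 16, with adjusted p from 0.00796 to 0.0876. The light and dark call held in all 22 (limma adjusted p 0.00365 to 0.0428), with a difference between 0.85 and 1.13.

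The 5 arrays with high Tff3 bear on Angptl4. It read 9.14 and 9.94 in ZT14 b and d against 11.23 and 11.69 in the other ZT14 arrays, and 9.54 in ZT22 a against 10.43 to 10.87 in the other ZT22 arrays. At ZT6 the order turned, with 11.46 and 11.95 in b and c against 11.39 in a. Without the 5 arrays, Angptl4 ran from 11.18 over 11.73 to 12.54 in 9 light arrays and from 10.43 over 11.08 to 11.93 in 8 dark arrays. The difference between light and dark was then 0.51, with a 95% interval of 0.10 to 0.93 and a limma adjusted p of 0.188, so the call was lost and the direction kept. Any difference among times had an adjusted p of 0.0965 in that limma fit, and the 24 h curve one of 0.282. Tff3 is on the cholangiocyte marker list, of which 5 of 6 genes were measured and whose summed level was 31.4 to 35.6 in the 5 arrays and 23.0 to 29.9 in the others. The defining biliary markers Krt19, Krt7, Epcam and Sox9 without Tff3 summed to 20.27 to 22.34 in the 5 arrays, inside the 19.27 to 25.24 of the others. Of these, Krt19 and Epcam read low, with means of 3.96 and 4.42, and Krt19 reached 6.12 in the others. The sums pool the times, although Sox9 was called for any difference among times (limma adjusted p = 0.00900). Whether biliary cells differed between these arrays was not tested. The part of the high Tff3 in the Angptl4 result was not tested.

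Angptl8 kept its day under the same change. Without the 5 arrays it ran from 7.62 over 9.58 to 10.23 in the light and from 10.29 over 13.20 to 14.39 in the dark, so the phases no longer overlapped. The difference was -3.62 (limma adjusted p = 0.000159), the 24 h amplitude 2.50 (adjusted p = 0.00328) and the rise from ZT10 to ZT14 5.75 (adjusted p = 0.000487). The fall from ZT6 to ZT10 came to -1.77 and was no longer called by limma (adjusted p = 0.526), with ZT6 then resting on 1 array that is assumed to vary like the others. These 17 arrays called 5.88% of features for a 24 h rhythm, 4.58% for any difference among times and 2.78% between light and dark. Of the 7 genes they called 1 in each test, Angptl8.

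Single markers of other cell types were also called between light and dark, as were 5.27% of all features. Of 8 Kupffer cell markers Cd5l was higher in the light by 0.71 (limma adjusted p = 0.0194). Of 4 measured lymphocyte markers Cd79b was higher there by 0.48 (0.0320) and of 4 measured neutrophil markers S100a9 by 0.58 (0.0271). Cd79b had a mean of 3.79, near the lower quartile of an array, where levels cannot be told from background. The summed levels overlapped: Kupffer cell markers summed to 54.8 to 61.4 in the light and 53.0 to 60.3 in the dark, lymphocyte markers to 16.3 to 18.7 and 14.6 to 17.3, and neutrophil markers, 2 of them at or below the lower quartile of an array, to 15.6 to 18.4 and 14.9 to 17.2. The hepatocyte marker Tat was higher in the dark (-0.63, limma adjusted p = 0.00584). By a 24 h rhythm or any difference among times Clec4f of Kupffer cells, Stab2, Clec4g and Kdr of sinusoidal endothelium and Sox9 of cholangiocytes were called too. Either of these tests called 9.07% of all features. Their part in the Angptl4 and Angptl8 results was not tested.

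Among the genes of circulating triglyceride-rich particles, Apoa5, an activator of their clearance, varied between mice and was not called by any test of time. It read 14.10, 13.41, 13.85 and 13.71 at ZT2, 14.02, 14.15 and 14.04 at ZT6, 14.47, 14.26, 13.75 and 14.32 at ZT10, 13.75, 14.57, 14.16 and 13.92 at ZT14, 14.58, 14.58 and 13.75 at ZT18, and 14.46, 13.21, 14.18 and 14.35 at ZT22. The lowest and the highest values both fell in the dark, and the ranges of neighbouring times overlapped. Light minus dark was -0.14 (95% interval -0.46 to 0.18, limma adjusted p = 0.694), the 24 h amplitude 0.18 (adjusted p = 0.565) and any difference among times had an adjusted p of 0.723.

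Apoc3, a brake on the clearance of these particles, came nearest to a difference among the genes not called. It read 17.24, 17.09, 17.10 and 16.99 at ZT2, 17.28, 17.02 and 16.89 at ZT6, and 16.90, 17.13, 17.32 and 17.20 at ZT10. In the dark it read 16.91, 17.25, 17.18 and 17.20 at ZT14, 17.27, 17.39 and 17.40 at ZT18, and 17.19, 17.27, 17.51 and 17.86 at ZT22. The 4 highest values were all from ZT18 and ZT22, and the other 7 dark arrays lay within the light range. Light minus dark was -0.21 ± 0.10 (95% interval -0.42 to -0.01), with an unadjusted p of 0.0436 and an adjusted p of 0.243 in limma, so it did not pass. The 24 h amplitude was 0.18 ± 0.07 (limma adjusted p = 0.267).

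Apob, the structural protein of VLDL, and Apoa1 of HDL were the steadiest of the 7 genes. Over all 22 arrays Apob ran from 18.58 to 18.89 with an SD of 0.08, and Apoa1 from 19.55 to 19.78 with an SD of 0.06. Light minus dark was 0.04 for Apob (95% interval -0.13 to 0.20) and 0.00 for Apoa1 (-0.16 to 0.17), with limma adjusted p of 0.871 and 0.989. In limma the 24 h amplitudes were 0.03 for Apob (adjusted p = 0.950) and 0.01 for Apoa1 (adjusted p = 0.991). The intervals leave room for differences up to those bounds. Apoa1 stood near the top of the scale, since the highest value of any feature on an array was 19.56 to 19.87. Whether the top of the scale limits its values was not tested.

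Mttp, which loads lipid onto apolipoprotein B, had its highest time mean at ZT18. Its arrays there read 14.44, 14.36 and 14.21, and the others read 13.74, 13.91, 14.33 and 13.48 at ZT2, 14.05, 13.85 and 13.74 at ZT6, 14.05, 13.66, 13.57 and 14.16 at ZT10, 13.71, 13.69, 14.29 and 13.80 at ZT14, and 13.53, 13.91, 14.38 and 14.08 at ZT22. The ZT18 group was high and tight (SD 0.12), but single arrays of ZT2, ZT14 and ZT22 reached into its range. The step from ZT14 to ZT18 was 0.46 (limma adjusted p = 0.497). Over the 6 steps, none was called for Mttp or the 4 apolipoprotein genes, and the lowest limma adjusted p among them was 0.477, for Apoc3 from ZT22 to ZT2. Light minus dark was -0.19 (95% interval -0.45 to 0.07, limma adjusted p = 0.438) and the 24 h amplitude 0.16 (adjusted p = 0.523).

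**Figure D2:**
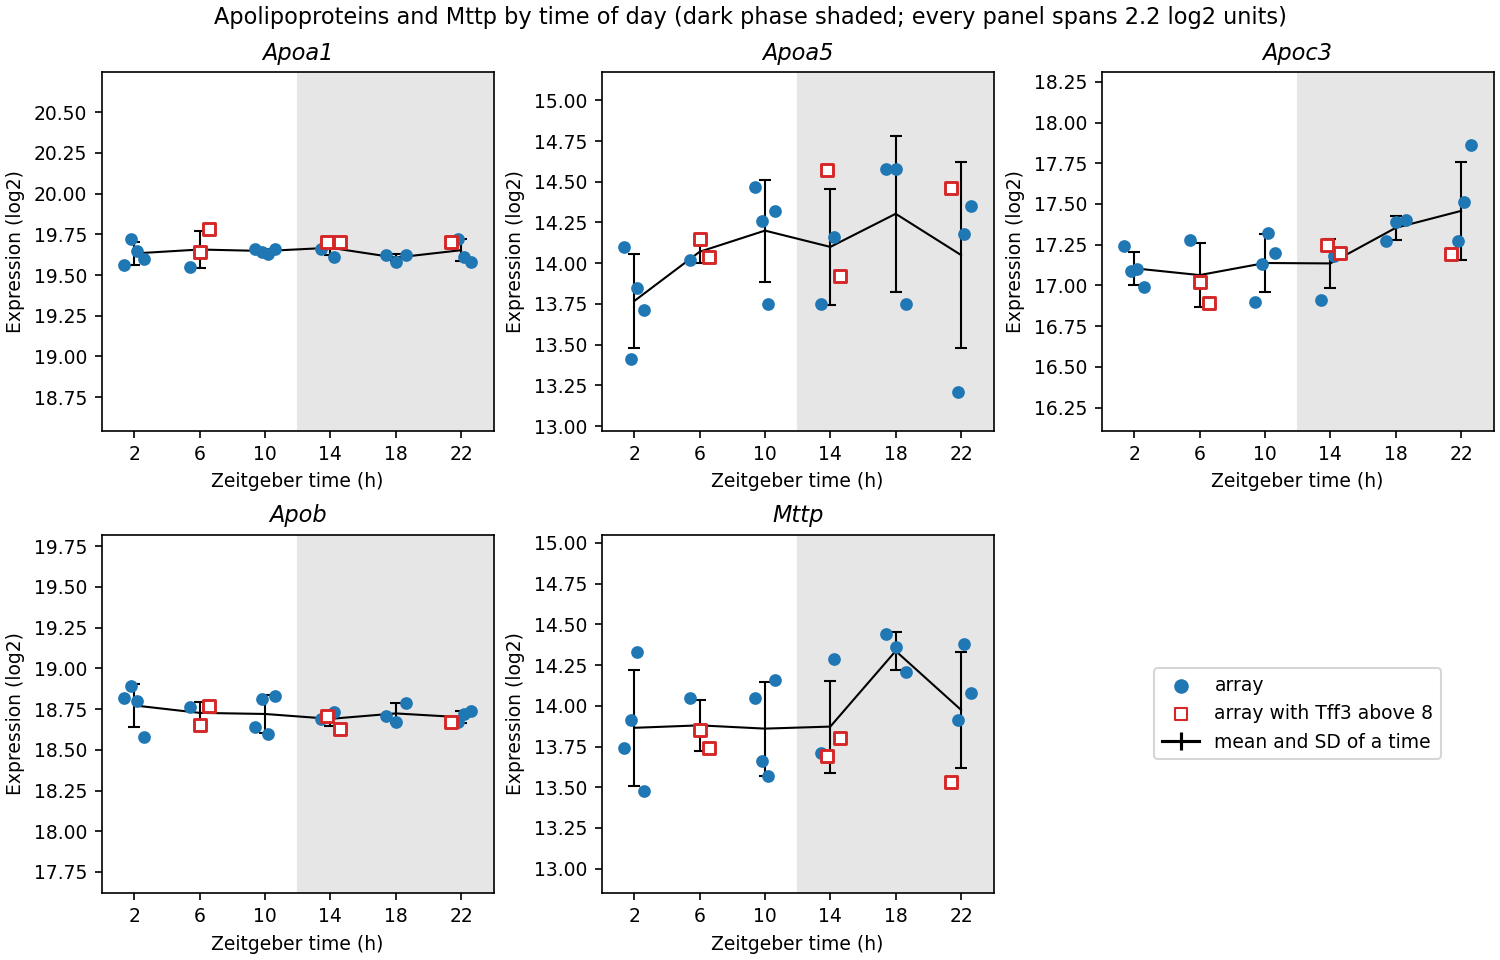
Log2 expression of Apoa1, Apoa5, Apoc3, Apob and Mttp against zeitgeber time in hours, 1 panel a gene, each spanning the same number of log2 units; points are arrays, open red squares the 5 arrays with high Tff3, and the black line joins the time means with SD bars. Apob and Apoa1 are nearly level (SD over all arrays 0.08 and 0.06), Apoa5 scatters within times, and Apoc3 is highest at ZT18 and ZT22.

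Apoa1, Apoc3 and Apoa5, with Apoa4 between the last pair, are neighbours in that order on chromosome 9 in the RefSeq annotation. Their differences between light and dark were 0.00, -0.21 and -0.14, and that of none of them was called. Angptl8 and Lipc also lie on chromosome 9, Angptl4 on 17, Apob on 12 and Mttp on 3.

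The wider pathway was described with 6 lists of 74 further genes, of which 65 were measured. The lists were chosen with earlier results of these data known, so the shares below describe them and are not a test of the pathway. A 24 h rhythm was called for 13 of the 65 (20%), beside 7.62% of all features and 13.6% of the features above the median level; 63 of the 65 lie above it. By either that test or any difference among times 15 of the 65 passed, beside 9.07% of all features. Of the 11103 features above the median level 1774 passed. Light and dark differed for 9 of the 65, beside 5.27% of all features. Of the 9, 5 were higher in the light (2.02% of features) and 4 in the dark (3.25%). Of the 11103 features above the median level 355 were higher in the light and 672 in the dark. The median fold span of the 65 was 1.44-fold, beside 1.29-fold over features above the median level. Without the 5 arrays with high Tff3, which left 1 array at ZT6, Apon, Rora and Mlxipl were no longer called for a 24 h rhythm. Tm6sf2, Pdia3 and Sdc1 were called instead. Between light and dark Lipg, Lrp1 and Nr1h3 were no longer called, and no gene was gained.

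Of the lipases and their regulators 10 of 11 were measured and 3 were called, and all 3 were higher in the dark. Lipg, the endothelial lipase that acts on HDL phospholipid, had its highest time mean at ZT14 with 9.05 ± 0.32 (SD, n = 4), beside 7.86 ± 0.20 (n = 4) at ZT10 and 7.51 ± 0.34 (n = 3) at ZT18. Its fitted curve spanned 3.01-fold with a peak 13.7 h after lights on (limma adjusted p = 0.000784). Lipa, the lysosomal acid lipase, spanned 1.97-fold with a peak at 20.9 h (adjusted p = 0.000519 in limma). Pcsk5, a protease that cleaves endothelial lipase and angiopoietin-like proteins, was called for any difference among times (limma adjusted p = 0.0324), with light minus dark of -0.48 ± 0.11. Without high-Tff3 arrays 2 genes of the list were called over time (Lipg and Lipa) and 2 between light and dark (Lipa and Pcsk5). Lipg then differed between light and dark by -0.61 (limma adjusted p = 0.0845), and Pcsk5 had an adjusted p of 0.0589 for any difference among times. Lpl itself was measured and was not called.

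Of the genes of HDL and sterol transfer 7 of 8 were measured, and the called pair was Abcg5 and Abcg8, the partner subunits of the transporter that moves sterols into bile. Abcg8 was 12.59 ± 0.20 (SD, n = 4) at ZT10 and 10.31 ± 0.38 (n = 3) at ZT18, a fitted span of 5.11-fold with a peak at 7.16 h (limma adjusted p = 3.15e-06). Abcg5 spanned 3.80-fold with a peak at 8.61 h (limma adjusted p = 0.000211). Both were higher in the light, by 1.53 ± 0.16 for Abcg8 and 1.001 ± 0.21 for Abcg5.

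Of the genes of VLDL assembly and export 14 of 15 were measured and 1 was called. Sort1, a sorting receptor that binds apolipoprotein B, was higher in the light by 0.80 ± 0.15 (limma adjusted p = 0.00151) with a peak at 6.16 h. Of the receptors and their regulators 9 of 12 were measured and 1 was called, Lrp1, a remnant receptor, which was higher in the light by 0.455 ± 0.10 (limma adjusted p = 0.00833). Without the 5 arrays with high Tff3 the Lrp1 difference was 0.48 and no longer called, whereas the 24 h rhythm of Lrp1 stayed called. Sort1 kept its call between light and dark, with 0.81. Tm6sf2 and Pdia3 of VLDL assembly and Sdc1 of the receptors were then called for a 24 h rhythm. Of the other apolipoproteins 9 of 11 were measured and 2 were called. Apon spanned 1.52-fold with a peak at 1.17 h (limma adjusted p = 0.0146), and Saa4, an apolipoprotein of HDL, 2.11-fold with a peak at 15.0 h (adjusted p = 0.0340). Apon was no longer called without the 5 arrays (limma adjusted p = 0.156).

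Of the transcriptional regulators 16 of 17 were measured and 6 were called. Nr1d1, a clock repressor, spanned 118-fold with a peak 6.83 h after lights on. Ppara, the fatty acid receptor of hepatocytes and a known activator of Angptl4, was highest at ZT10 with 13.47 ± 0.15 (SD, n = 4) and lowest at ZT2 with 11.59 ± 0.44 (n = 4). It spanned 2.68-fold with a peak at 12.3 h (limma adjusted p = 0.00124) and did not differ between light and dark beyond its error (-0.03 ± 0.15, adjusted p = 0.944). Nr0b2, a corepressor of bile acid signalling, spanned 5.87-fold with a peak at 0.614 h (adjusted p = 0.00190), and Rora 1.77-fold with a peak at 21.1 h (limma adjusted p = 0.00969). In the 17 arrays with low Tff3, 3 of the regulators were called, Nr1d1, Ppara and Nr0b2, and Rora was not (limma adjusted p = 0.0520 for the rhythm and 0.0877 among times).

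**Figure D3:**
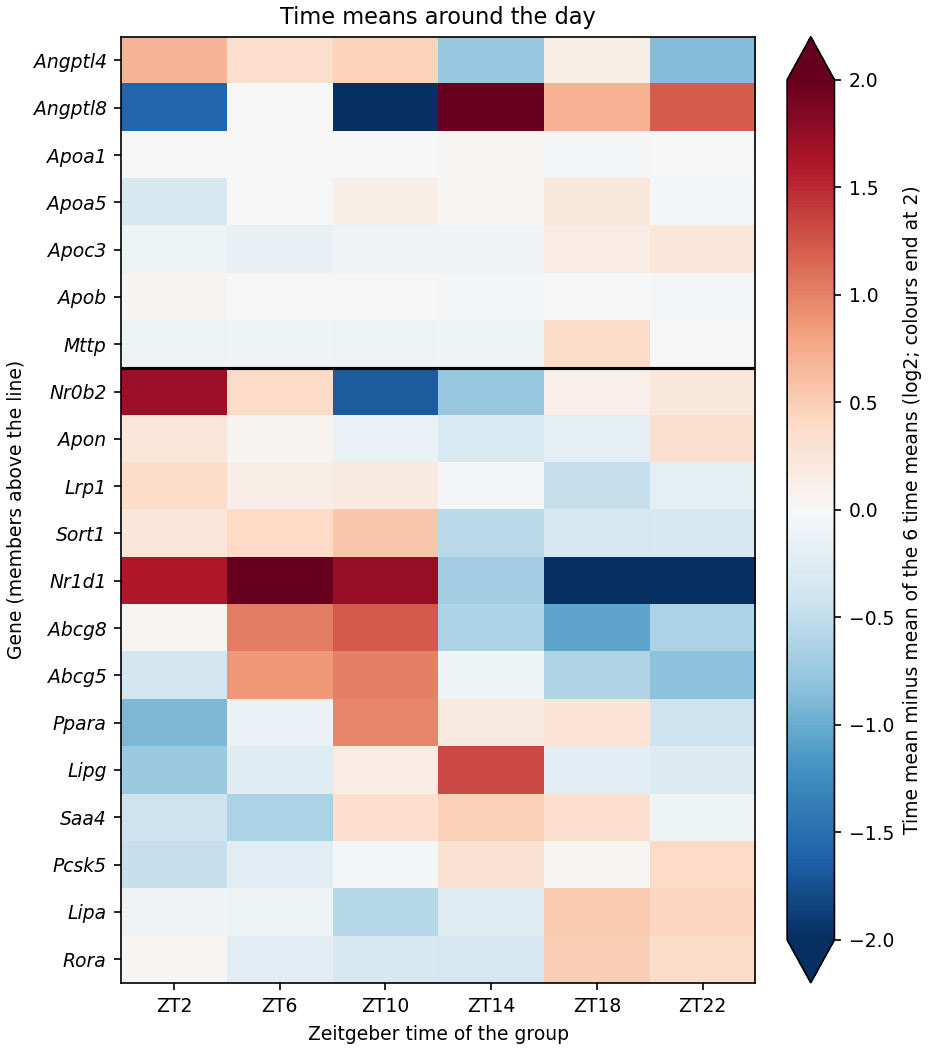
Time means of the 7 measured genes (above the line) and of called genes of the 6 lists, up to 4 a list (below it, in order of fitted peak). Each is shown minus the mean of its own 6 time means, on a log2 colour scale that ends at 2 in both directions. Angptl8 is lowest at ZT10 (8.19) and highest at ZT14 (14.26), Angptl4 is higher in the light times, and the rows of the 5 other genes are pale.

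**Figure D4:**
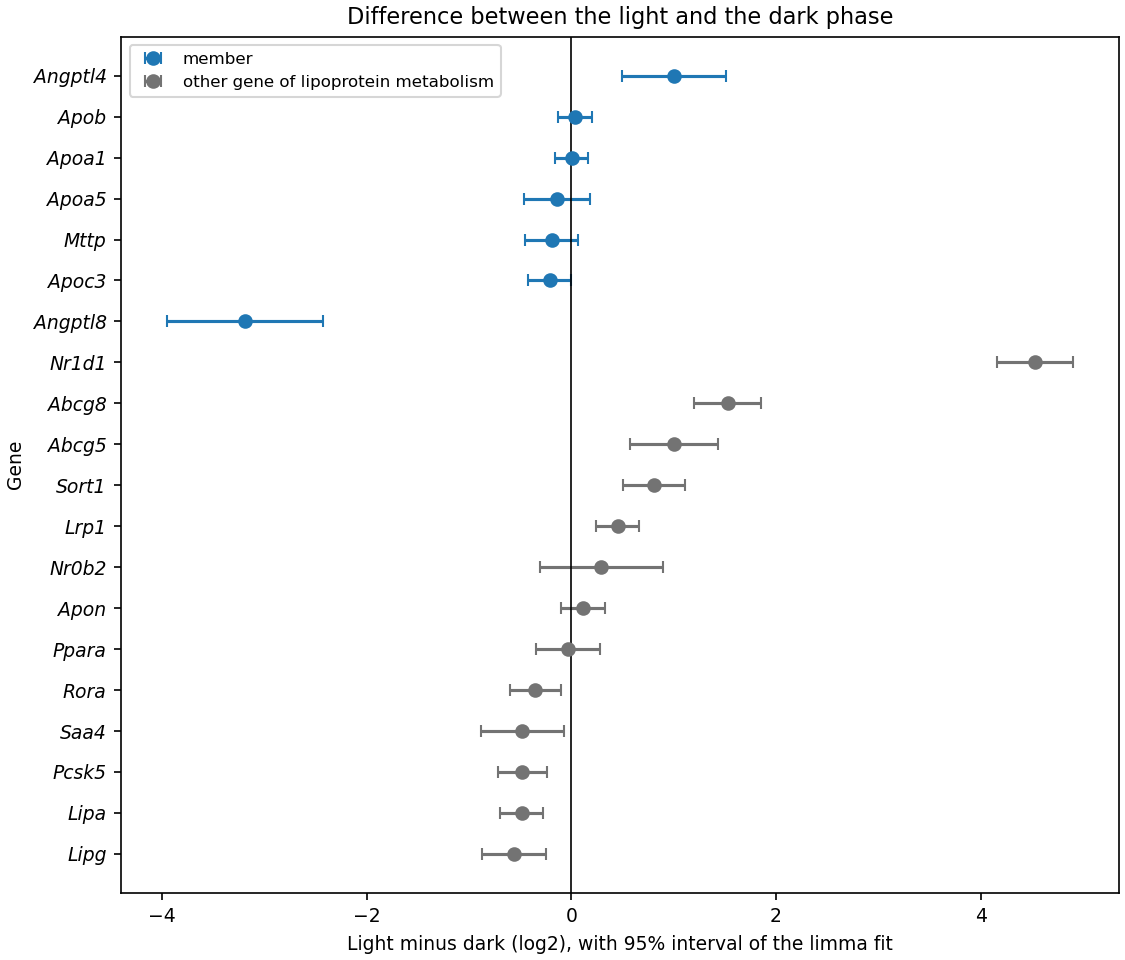
Light minus dark (log2) with the 95% interval of the limma fit, for the 7 measured genes in blue and called genes of the 6 lists in grey. Up to 4 called genes a list are shown, and the vertical line is no difference. Among the blue points Angptl8 (-3.19) and Angptl4 (0.999) stand away from 0, and the upper end of the Apoc3 interval lies at -0.01.

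The genes most like the called pair were taken by Pearson correlation over the 22 arrays, as a description. The arrays of a time share their time, so a common daily pattern enters these values. For Angptl8 they were Epha2, an ephrin receptor (r = 0.908), G0s2, an inhibitor of adipose triglyceride lipase (r = 0.836), and Ppid, a cyclophilin (r = 0.832). Without the 5 arrays with high Tff3 the values were 0.884, 0.862 and 0.8003. G0s2 had its lowest time mean at ZT10 (7.90) and its highest at ZT14 (11.88), as Angptl8 did, and light minus dark was -2.07 ± 0.32 (limma adjusted p = 0.000258). For Angptl4 the likest were Aptx, a DNA repair gene (r = 0.778), Tmem247 (r = 0.775) and Ccdc63 (r = 0.761). Aptx fell to 0.472 without the 5 arrays, and Tmem247 and Ccdc63, at 0.733 and 0.760, read near the lower quartile of an array, where levels cannot be told from background.

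Whether mice of the same time that were high in one gene were high in another was examined from each array's deviation from the mean of its time. Over the 22 arrays 21 pairs of the 7 genes were correlated, with 100000 permutations within times and Benjamini-Hochberg adjustment over the 21, and 0 passed. Angptl4 and Angptl8 had r = -0.14 (permutation p = 0.514, adjusted 0.790) and rho = -0.20 (permutation p = 0.413, adjusted 0.713), and r = -0.06 without the 2 arrays farthest from the median of Angptl4. The largest in size were Angptl8 with Apoa1 (r = 0.591, permutation p = 0.0114, adjusted 0.206; rho = 0.581, permutation p = 0.0138, adjusted 0.289) and Apoa1 with Apoc3 (r = -0.590, permutation p = 0.0197, adjusted 0.206; rho = -0.514, permutation p = 0.05, adjusted 0.525). Without the 2 farthest arrays they were 0.566 and -0.500, and without the 5 arrays with high Tff3 0.523 and -0.614. In that last set Angptl4 with Angptl8 had r = -0.25, and the largest in size was Apoa1 with Apoa5 (r = -0.666, beside -0.277 over all 22 arrays). Apoa1 varied so little (SD 0.06) that its deviations are mostly a few hundredths of a log2 unit.

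**Figure D5:**
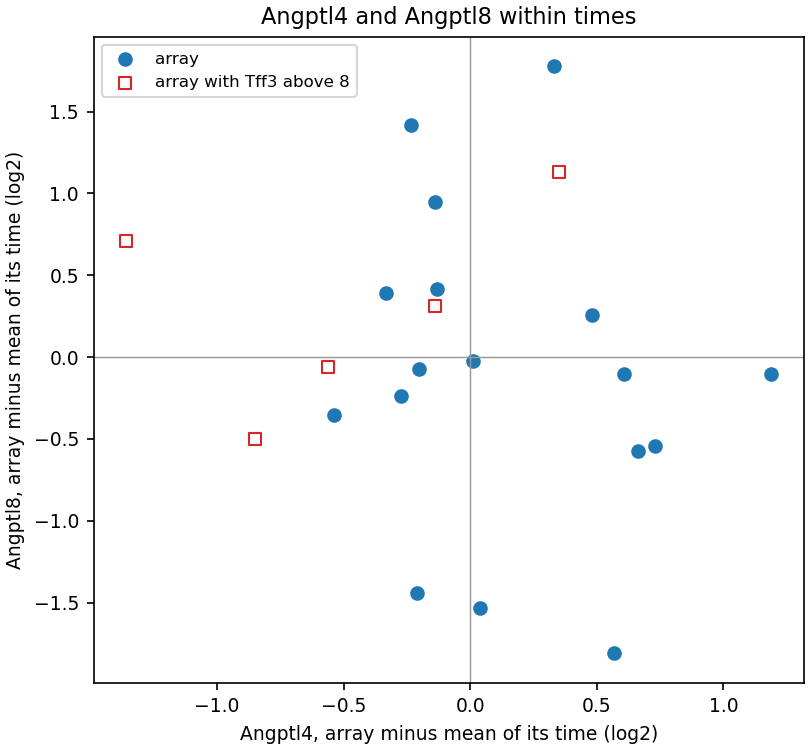
Deviation of Angptl8 (vertical) against that of Angptl4 (horizontal) from the mean of their time, in log2 units, 1 point an array, with open red squares for the 5 arrays with high Tff3. The points form no line (r = -0.14, permutation p = 0.514). The red squares run from -1.36 to 0.35 for Angptl4, where the points farthest to the left (-1.36 and -0.85) are red squares, and from -0.50 to 1.13 for Angptl8.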

How the data were processed

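Total RNA was extracted with TRIzol and 100 ng a sample was run on Clariom S arrays with the WT Plus kit, per the labels' protocols. The deposited table gives 1 log2 value per feature and array. No source used here names the log base. Values run from about 2 to 20 and were read as log2, on which all folds depend. The authors' normalization, software and build are likewise not stated there. Gene symbols came from the array annotation (19572 of 22206 features have 1) and their gene IDs all matched RefSeq (GRCm38.p6).

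Groups follow the time in the labels. Models were fitted with lmFit and eBayes (limma 3.58.1, R 4.3.3) to all 22206 features and 22 arrays, with no filter on dim features, and p-values were adjusted by Benjamini-Hochberg over all features (threshold 0.05): a cosine and sine of 24 h, any difference among the 6 time means, light minus dark, the 6 steps between neighbouring times, and an added 12 h component. The code of the fits was run on simulated data with known changes. These had independent noise for each feature, planted changes larger than those of Angptl4, and no arrays that stand apart. The simulation therefore does not cover such cases. Alternatives were another normalization, a filter on dim features, a trend with a robust prior, array weights, a replicate block, ranks, a stricter threshold of 0.01, and leaving out arrays or times. Arrays have no read depth, and their number limits the precision. The members and gene lists were chosen with earlier results of these data known. Named genes are the members and up to 4 called genes a list by lowest adjusted p of the 24 h test. The 3 genes likest each called member, Adipoq and Tff3 are named too. So are list genes whose 24 h or light and dark call changed without the arrays with high Tff3. Markers of 12 cell types were summarised: hepatocyte, Kupffer, endothelial, cholangiocyte, lymphocyte and neutrophil lists held called genes, named in the results, and 0 of the measured stellate, erythroid, adipocyte, enterocyte, muscle and acinar markers were called.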

Additional observations from a re-analysis of the deposited data

Results flagged for a closer look

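Angptl4 in ZT2 array c, at 12.54, stood apart from the other ZT2 arrays, which read 11.66 to 11.80. It was the highest Angptl4 value of all 22 arrays. By Dixon's test on the groups of 4 arrays, 28 groups of the 7 genes were examined and 1 stood apart, where chance gives about 1 in 20. Without that array the light and dark difference of Angptl4 kept its call.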

How the results depend on the processing

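Where the main fit called 1 gene for a 24 h rhythm (Angptl8), 0 were called with a trend and a robust prior, with the replicate block, on ranks, at the threshold of 0.01, without ZT2 and without ZT22, and 2 without ZT18, when Angptl4 joined (amplitude 1.03, limma adjusted p = 0.0242). Leaving out 1 array gave 0 to 1. For any difference among times the count fell from 2 to 1 with the trend and robust prior, the replicate block, ranks, the threshold of 0.01 and without the arrays with high Tff3, and leaving out 1 array gave 1 to 2. Between light and dark it fell from 2 to 1 on ranks, at 0.01 and without the arrays with high Tff3, and for the steps from 2 to 1 with the trend and robust prior, ranks, 0.01 and without the arrays with high Tff3. Leaving out 1 array gave 2 between light and dark and 1 to 3 for the steps, and the filter on dim features gave 3 steps. The gains were the fall of Angptl8 from ZT22 to ZT2 (with the filter, and without ZT6 a, ZT18 b or ZT22 c) and that of Angptl4 from ZT10 to ZT14 (without ZT14 c). Losses were the Angptl8 rhythm, the Angptl4 calls and the Angptl8 fall from ZT6 to ZT10. The cause was not tested. The light and dark difference of Angptl8, its rise at ZT14 and its differences among times kept their calls under every alternative run, the 12 h count stayed at 0, and the other 5 genes were called under none. With the replicate block the Angptl8 rhythm had a limma adjusted p of 0.0611 and Angptl4 one of 0.0737 among times. The labels do not say whether the letters mark a shared batch. The 51 same-letter pairs of different times correlated between -0.236 and 0.226, with a median of 0.00278, beside 0.00166 for pairs of other letters. Of the same-letter pairs 3 were over 0.1, and 5 of 22 arrays correlated best with their own letter. With 3 to 4 arrays a time, these values cannot settle whether a batch was shared. The results are limited by 3 to 4 arrays a time, 1 knockout strain and samples of 1 day every 4 h, and Angptl4 also by the 5 arrays with high Tff3.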
